A study of Mus musculus with 4 samples.

Results

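The heat shock proteins and chaperones described here are 80 genes of 31017 listed in each count table. They were taken by symbol: names that begin with Hspa, Hspb, Hspd, Hspe, Hsph or Hsp90, the J protein names Dnaja, Dnajb and Dnajc, and the names Cct2 to Cct8. The study sequenced RNA from bone marrow monocytes, sorted by flow cytometry, with 2 libraries of aged (18 months) and 2 of young (3 months) wild-type C57BL/6 mice. All 4 libraries carry the tag atherosclerosis in their labels, which do not say whether the mice had plaques, and no allele or agent besides age separates the groups. The title of the series sets the comparison within work on marrow age and the clonality of plaque cells that derive from smooth muscle. Separate animals for the 2 libraries of an age are not stated, and the spread that p-values rest on may thus be technical.

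Chaperones bind proteins that are unfolded or newly made and keep them from clumping while they fold. HSP70 proteins do this in cycles of ATP hydrolysis: a J protein (a DNAJ family member) delivers the client and starts hydrolysis, and a nucleotide exchange factor of the HSP110 or BAG family ends the cycle. HSP90 proteins finish the folding of kinases and steroid receptors, small HSPs hold damaged proteins, and the ring-shaped chaperonins enclose actin and tubulin in the cytosol (CCT) and imported proteins in mitochondria (Hspd1 with Hspe1). Stress that unfolds proteins frees the transcription factor HSF1, which binds heat shock elements in front of inducible genes such as Hspa1a and Hspa1b. A separate response of the endoplasmic reticulum acts on Hspa5 and its J proteins. By class the 80 genes comprised 11 of HSP70, 3 of HSP110, 2 of HSP90, 8 small HSPs, 2 mitochondrial chaperonin genes, 4 of DNAJA, 13 of DNAJB, 28 of DNAJC, 8 of CCT, and Hspbap1, which encodes a protein that binds a small HSP. Hsp90b1, the HSP90 of the endoplasmic reticulum, and Tcp1, the alpha subunit of CCT, do not match the symbol rule and are given with the partner genes.

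Library totals were 24918091 and 21837261 counts in aged libraries, against 34278754 and 20159129 counts in young ones. Levels are given as CPM, counts per 1000000 after TMM scaling (trimmed mean of M-values), and a log2 change is aged over young, with its standard error and n = 2 per age. A change was called where the Benjamini-Hochberg adjusted p of edgeR's quasi-likelihood test, over all 12035 genes tested, was under 0.05. A count of 0 allows up to 3 counts, which is between 0.0875 and 0.149 CPM in these libraries, and this limit covers counting error only. All 10 monocyte markers were tested. They summed to 43827 and 43062 CPM in aged monocytes and 41633 and 43677 CPM in young monocytes. Most of each sum was Lyz2, at 34835 and 34698 CPM in aged libraries, against 32747 and 35199 CPM in young ones. The sums therefore say little of the other markers, which are described below. Markers of neutrophils were abundant too, with sums between 27382 and 28561 CPM, and of all the marker genes of 7 cell types none was at 0 in every library, though Pax5 of B cells and Ncr1 and Gzma of T and NK cells had at most 3 counts in some. The bulk libraries cannot tell apart fewer cells of a type and less RNA per cell.

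Promoters are shown for the called genes Hspa1a, Hspa1b and Hspa5, which hold a stress element, and for Dnajc3 and Hspe1, which hold one but were not called. Each is given as the 250 bases in front of the annotated start, from RefSeq on GRCm38.p6. Hspa1a and Hspa1b are the stress-inducible pair on the minus strand of chromosome 17 (chr17:34972157-34972406 and chr17:34959239-34959488). Their promoters were identical at 247 of 250 positions (98.8%), and capitals mark a 2-unit heat shock element (GAANNTTC or TTCNNGAA), 96 bases before the start in both.
Hspa1a: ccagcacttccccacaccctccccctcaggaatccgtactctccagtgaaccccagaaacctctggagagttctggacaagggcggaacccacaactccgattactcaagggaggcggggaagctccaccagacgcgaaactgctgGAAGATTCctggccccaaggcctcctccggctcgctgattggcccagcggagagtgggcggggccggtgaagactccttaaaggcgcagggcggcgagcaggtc
Hspa1b: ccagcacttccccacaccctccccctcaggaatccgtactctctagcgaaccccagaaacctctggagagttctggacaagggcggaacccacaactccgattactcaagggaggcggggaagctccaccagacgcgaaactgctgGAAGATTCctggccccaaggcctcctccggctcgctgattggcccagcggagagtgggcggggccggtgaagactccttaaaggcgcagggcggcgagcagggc
For Hspa5, which encodes the HSP70 of the endoplasmic reticulum (chr2:34771840-34772089, plus strand), and Dnajc3, a J protein of the same compartment (chr14:118937682-118937931, plus strand), capitals mark the endoplasmic reticulum stress element (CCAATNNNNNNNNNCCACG). It lies 46 bases before the start of Hspa5 and 86 before that of Dnajc3.
Hspa5: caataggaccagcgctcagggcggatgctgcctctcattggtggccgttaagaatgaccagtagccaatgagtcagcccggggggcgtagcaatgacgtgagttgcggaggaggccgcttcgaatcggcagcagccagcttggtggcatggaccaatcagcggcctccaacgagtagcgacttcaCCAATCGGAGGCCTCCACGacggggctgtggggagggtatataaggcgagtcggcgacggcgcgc
Dnajc3: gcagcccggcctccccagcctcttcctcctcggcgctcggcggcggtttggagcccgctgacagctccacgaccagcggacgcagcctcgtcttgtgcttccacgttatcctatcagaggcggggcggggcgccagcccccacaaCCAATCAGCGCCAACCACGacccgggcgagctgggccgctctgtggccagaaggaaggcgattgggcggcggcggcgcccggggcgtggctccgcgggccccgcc
Hspe1 (chr1:55087898-55088147, plus strand) and Hspd1 lie head to head, their windows share 215 bases, and capitals mark overlapping 3-unit heat shock elements (GAANNTTCNNGAA or TTCNNGAANNTTC), 71 bases before the start of Hspe1.
Hspe1: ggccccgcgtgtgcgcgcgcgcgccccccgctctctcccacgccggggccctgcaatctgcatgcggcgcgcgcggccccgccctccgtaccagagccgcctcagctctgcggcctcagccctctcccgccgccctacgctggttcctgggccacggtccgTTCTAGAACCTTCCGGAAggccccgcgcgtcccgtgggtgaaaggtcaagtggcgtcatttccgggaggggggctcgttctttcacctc
RefSeq promoters were found for 65 of the 80 genes. On either strand, the 3-unit element occurred in 3 of the 65 (4.62%: Dnajb6, Hspd1 and Hspe1), against 139 of 27025 genes of the table (0.514%). The 2-unit element, which every 3-unit element contains, occurred in 17 (26.2%), against 14.5% of all genes. The 17 were Cct2, Cct5, Cct8l1, Dnaja1, Dnaja4, Dnajb4, Dnajb6, Dnajc10, Dnajc27, Hspa1a, Hspa1b, Hspb1, Hspb3, Hspb6, Hspd1, Hspe1 and Hsph1. Of these, Dnaja1, Hspa1a and Hspa1b were called. The endoplasmic reticulum element occurred in 2 (3.08%), Hspa5 and Dnajc3, against 0.13%. These are matches of letters, not measured binding.

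Between aged and young monocytes, 6 chaperone genes changed. Hspa1a, Hspa1b, Hspa8, Hspa5 and Dnaja1 were higher in the aged libraries and Dnajc15 was lower. Of the 80 genes, 62 passed the filter on low counts and were tested, and 18 were not, of which 8 were at 0 in all libraries (Hspb2, Hspb3, Hspb7, Hspb8, Dnajb8, Dnajc5b, Dnajc5g and Dnajc22). The 6 calls are 9.68% of the tested chaperone genes, beside 5.77% of all genes tested (694). By direction 5 rose (8.06%, against 2.87% of all genes) and 1 fell (1.61%, against 2.89%). The 6 calls, the 5 rises and the overlap counts that follow include Hspa1a, which passed the filter on low counts only through its aged libraries. The libraries of the ages did not overlap in 36 of the 62 genes (58.1%), with the aged pair above in 24 and below in 12, and over all genes this held for 51.6%, with 25.9% above and 25.7% below. The median log2 change of the 62 was 0.056, against -0.0044 over all genes, and the median size was 0.12 against 0.15. Outside the HSP70 class, 2 of 54 tested genes were called (3.7%).

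**Figure D1:**
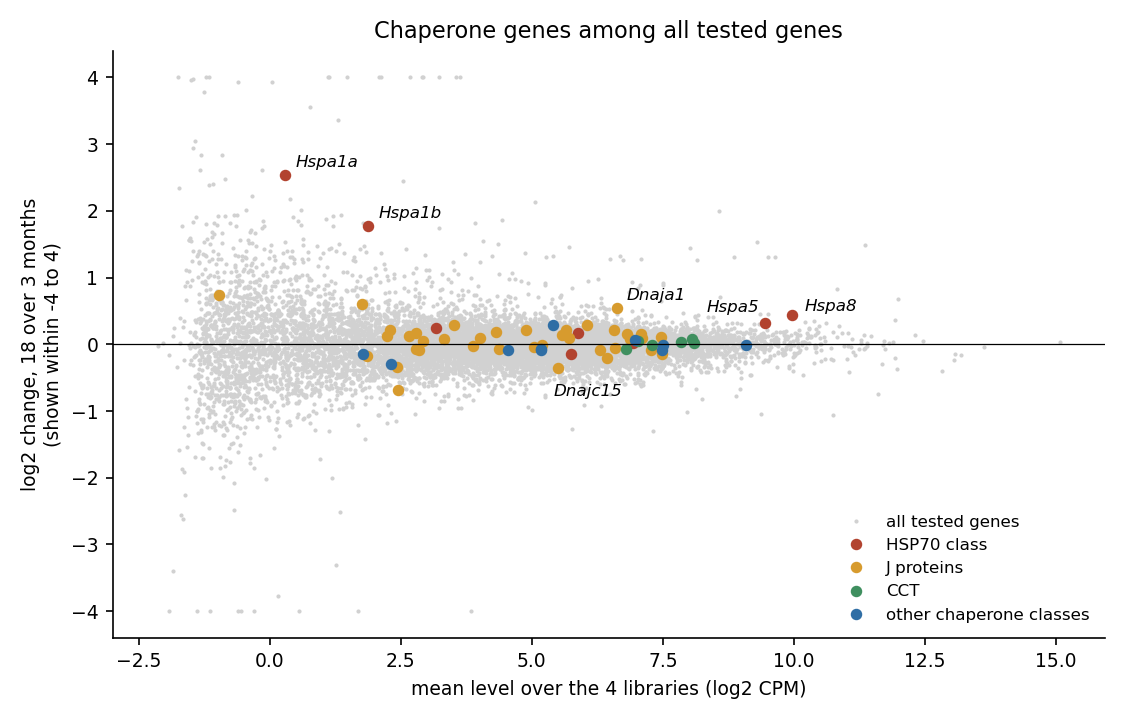
Log2 change (18 months over 3 months, y axis) against the mean level over 4 libraries (log2 CPM, x axis) for all 12035 tested genes (grey) and the 62 tested chaperone genes (coloured by class), with the 6 called genes named. Changes beyond 4 are drawn at 4. Hspa8 and Hspa5 lie at the high end of expression with changes of 0.44 and 0.33, and Hspa1a and Hspa1b at the low end with 2.53 and 1.77.

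The stress-inducible HSP70 genes showed the largest called rises of the tested chaperone genes, with Hspa1a passing the filter on low counts only through its aged libraries. Hspa1b (ENSMUSG00000090877.3; chromosome 17, 34956436 to 34959238) stood at 5.66 and 5.71 CPM in the aged libraries, against 1.71 and 1.61 CPM in the young ones. These levels rest on 142 and 124 counts at 18 months and 59 and 32 at 3 months, and within each age the pair of libraries lay close together. Hspa1b rose 3.41-fold (95% interval 2.32 to 5.01), a log2 change of 1.77 ± 0.25 (edgeR adjusted p = 0.00282). Hspa1a (ENSMUSG00000091971.3; chromosome 17, 34969190 to 34972156) had 59 and 39 counts in the aged libraries, which is 2.35 and 1.79 CPM, against 10 and 9 counts in the young ones, 0.289 and 0.452 CPM. Both aged libraries were above both young ones, and Hspa1a rose 5.78-fold (2.77 to 12.1; log2 change 2.53 ± 0.48, adjusted p = 0.0132). Passing the filter in this way favours genes that differ between the ages, so the fold and call of Hspa1a are given as a description. The young counts are few, and without young replicate 1 the adjusted p was 0.144.

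The proteins of this pair are nearly identical, and their reads are hard to assign. Of all 50-base windows of the Hspa1a transcript, 66.3% recur in another gene, and of Hspa1b 62.3%, with the other gene of the pair among the matches in both cases. Values of either gene alone are therefore uncertain. The sum of both does not depend on how reads were split between them. Windows of both also recur in Gm20481 and Gm10501, so the level of the sum is uncertain too. Hspa1a overlaps Gm20481 on the opposite strand over 19% of its exon bases. As counted, the sum was 8.02 and 7.5 CPM in the aged libraries, against 2.0 and 2.06 CPM in the young ones. Refitted as a single gene it gave a log2 change of 1.94 ± 0.22 (1.45 to 2.42, edgeR adjusted p = 0.000697), 3.83-fold higher in aged monocytes. The third gene of the cluster, Hspa1l, a form known from the testis, had 0 and 2 counts in aged libraries, against 0 and 2 in young ones.

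Hspa8 and Hspa5, the constitutive HSP70 genes of the cytosol and of the endoplasmic reticulum, rose by less but carried most of the added CPM. Hspa8 (ENSMUSG00000015656.17; chromosome 9, 40800984 to 40810087) encodes the cytosolic HSP70 that folds new proteins and strips clathrin from vesicles. It stood at 1143 and 1160 CPM in aged monocytes and 828 and 871 CPM in young monocytes, the highest level per kilobase of transcript of all 80 genes, at 481 CPM per kilobase in aged and 355 in young monocytes. The rise was 1.36-fold (1.25 to 1.47; log2 change 0.44 ± 0.052, adjusted p = 0.00099). Other genes, among them the processed pseudogene Gm15459, share 74.8% of its 50-base windows. Hspa8 made up 17.5% and 17.6% of the summed CPM of the 80 genes in the aged libraries and 14.1% and 14.3% in the young ones. Hspa5 (ENSMUSG00000026864.13; chromosome 2, 34771970 to 34777547) encodes BiP, which folds secreted and membrane proteins and holds the stress sensors of the endoplasmic reticulum inactive. Its level was 772 and 777 CPM at 18 months and 601 and 636 CPM at 3 months, with no overlap and a rise of 1.25-fold (1.15 to 1.36; log2 change 0.33 ± 0.054, adjusted p = 0.00663). Without young replicate 1 the change of Hspa5 was 0.29 and did not pass (adjusted p = 0.0751). The rises of Hspa8 and Hspa5 are small beside the fold of the inducible pair. In CPM they are far larger, since the pair together, as counted, stays under 9 CPM.

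**Figure D2:**
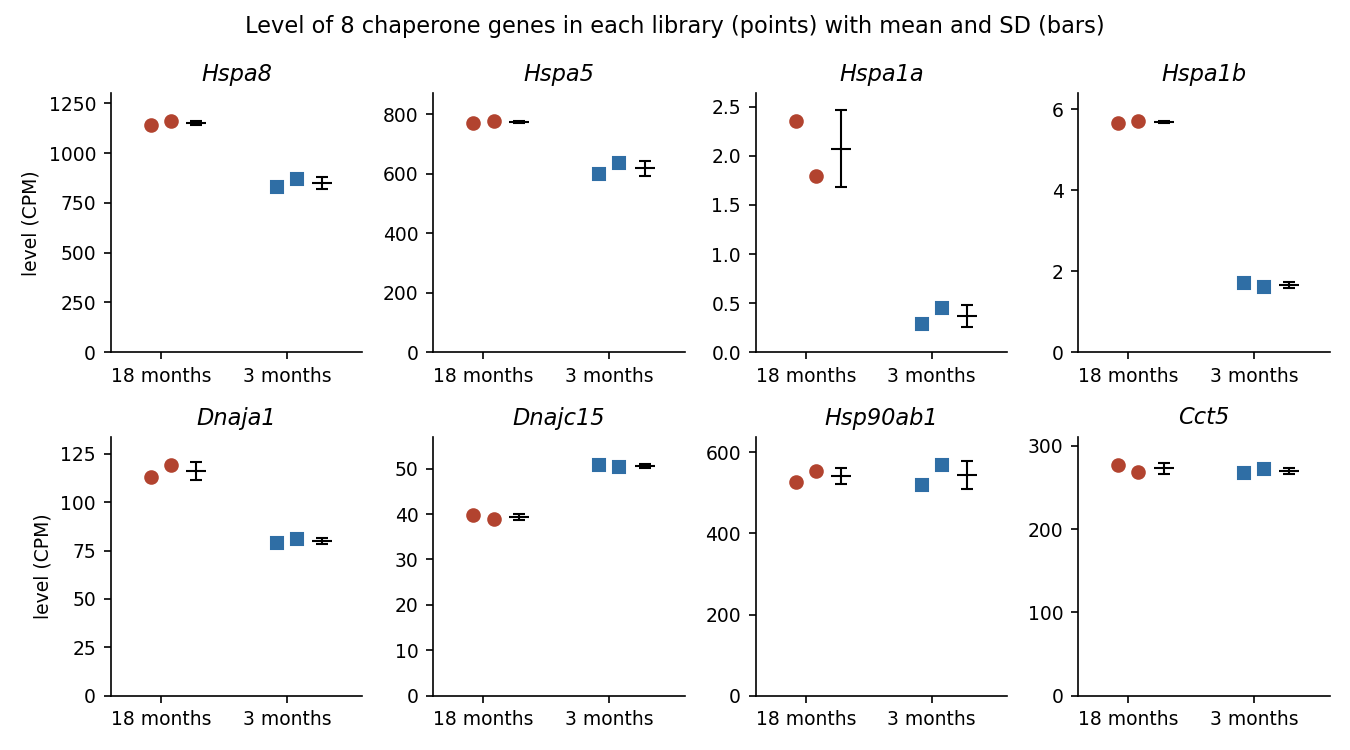
Level (CPM, y axes from 0, each with its own scale) of 8 chaperone genes in each library, with 18 months left and 3 months right, points for libraries and bars for mean and SD (n = 2). The 18-month points lie above the 3-month points for Hspa8, Hspa5, Hspa1a, Hspa1b and Dnaja1 and below them for Dnajc15, and they overlap for Hsp90ab1 and Cct5.

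The other HSP70 genes did not pass. Genes described by name are the called ones, a set of central chaperones, for each class the gene of smallest p and the gene of highest level per kilobase, and of each partner list the called genes or the gene of smallest p. Further genes lie outside this naming rule, among them Cct2, Dnaja4 and all untested genes but Hspb1. Hspa9, the mitochondrial HSP70 that pulls proteins through the inner membrane, stood at 124 and 121 CPM in aged libraries, against 119 and 124 CPM in young ones, and its log2 change was 0.014 ± 0.065 (-0.13 to 0.16). Outside the naming rule, Hspa14, which works with Dnajc2 on the ribosome, gave 0.17 ± 0.078 (adjusted p = 0.245), Hspa2, best known from sperm cells, 0.24 ± 0.17 (0.455), and Hspa13, an HSP70-like ATPase of the endoplasmic reticulum, -0.14 ± 0.085 (0.37). Of 8 tested HSP70 genes 4 rose (50%, against 2.87% of all genes), Hspa1a among them, and none fell (against 2.89%). The median was 0.29, with Hspa1a included. Hspa12a, Hspa12b and Hspa1l were not tested. Hspa12a had 37 counts in aged replicate 1 and 5 in aged replicate 2, against 8 and 3 in the young libraries, so its higher mean in aged monocytes is that of 1 library.

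The HSP110 genes, whose proteins exchange the nucleotide of HSP70, had no call with edgeR, DESeq2 or limma-voom. Over all genes tested 2536 of 12035 had an unadjusted p under 0.05, and of the HSP110 genes 1 of 3 did. That gene was Hsph1, the heat-inducible member, at 47.7 and 45 CPM in aged monocytes and 36.0 and 39.8 CPM in young monocytes. Its log2 change was 0.29 ± 0.093 (0.087 to 0.50; adjusted p = 0.0997), with no overlap between the ages. Hspa4, the constitutive and most abundant member, stood at 186 and 175 CPM at 18 months and 178 and 187 CPM at 3 months, and the change of -0.011 ± 0.063 was smaller than its error.

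The HSP90 genes of the cytosol lay close to equal between the ages. Hsp90ab1, the constitutive form and second to Hspa8 per kilobase, stood at 526 and 555 CPM in aged libraries, against 519 and 569 CPM in young ones, which overlap (log2 change -0.0093 ± 0.061, interval -0.14 to 0.13). Hsp90aa1, the inducible form, stood at 167 and 178 CPM in aged monocytes and 176 and 191 CPM in young monocytes (-0.087 ± 0.068, interval -0.24 to 0.062), with 58.5% of its 50-base windows shared with other genes, among them pseudogenes. Neither passed with edgeR, DESeq2 or limma-voom, and neither had an unadjusted p under 0.05. Differences within these intervals could not be told apart from none.

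Small HSPs were scarce in these monocytes. Of 8 genes, Hspb6 and Hspb11 were tested, 4 were at 0 in all libraries, and Hspb1, the main inducible small HSP of many tissues, had 3 and 2 counts at 18 months and 1 and 1 at 3 months, with 51.6% of its 50-base windows shared with other genes, among them Hsp25-ps1. Those counts are at or under the limit that a count of 0 allows. Hspb6 stood at 4.23 and 4.69 CPM in aged libraries, against 5.70 and 5.17 CPM in young ones (-0.29 ± 0.21, edgeR adjusted p = 0.463). Hspb11, a name of the ciliary transport subunit Ift25, gave -0.15 ± 0.26 (adjusted p = 0.791). Neither had an unadjusted p under 0.05, and edgeR, limma-voom and DESeq2 called neither. Hspbap1, outside these classes, stood at 22.6 and 22.6 CPM in aged monocytes and 22.6 and 25.4 CPM in young monocytes (-0.082 ± 0.11).

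The subunit genes of the cytosolic chaperonin CCT lay close to equal between the ages. The 6 tested subunits had log2 changes between -0.069 (Cct2) and 0.083 (Cct8), with a median of 0.024. Cct5, the most abundant per kilobase, stood at 277 and 268 CPM at 18 months and 267 and 273 CPM at 3 months (0.016 ± 0.056, interval -0.11 to 0.14). Cct8, with the smallest p, stood at 281 and 266 CPM in aged libraries, against 260 and 255 CPM in young ones (0.083 ± 0.058, adjusted p = 0.455). The listed CCT genes do not cover every subunit of the complex. Their summed level was 1178 and 1172 CPM in aged monocytes and 1142 and 1166 CPM in young monocytes. No subunit passed with edgeR, DESeq2 or limma-voom, and none had an unadjusted p under 0.05. The testis forms Cct6b and Cct8l1 were not tested, with 1 and 3 counts of Cct6b at 18 months and 16 and 3 at 3 months, and 0 and 0 counts of Cct8l1 in aged libraries, against 2 and 0 in young ones.

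The mitochondrial chaperonin genes behind the shared promoter shown above also did not pass. Hspd1, which encodes the barrel, stood at 133 and 123 CPM in aged monocytes and 122 and 124 CPM in young monocytes (0.062 ± 0.068, adjusted p = 0.656). Hspe1, which encodes its lid, stood at 33.9 and 35.9 CPM at 18 months and 38.0 and 35.9 CPM at 3 months (-0.085 ± 0.093, adjusted p = 0.652). The changes of the pair had opposite signs and both intervals included 0. Neither had an unadjusted p under 0.05 or passed with DESeq2 or limma-voom. Both genes share 44.8% of their 50-base windows with other genes, among them pseudogenes.

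J proteins choose the clients of HSP70, and of 45 such genes 38 were tested. There was 1 rise and 1 fall (2.63% each, against 2.87% and 2.89% of all genes). The rise was that of Dnaja1 (ENSMUSG00000028410.13; chromosome 4, 40722150 to 40737149), a main cytosolic partner of Hspa8. It stood at 113 and 119 CPM in the aged libraries and at 78.9 and 80.9 CPM in the young ones, rising 1.45-fold (1.3 to 1.62; log2 change 0.54 ± 0.070, edgeR adjusted p = 0.00168). Dnaja1 shares 28.8% of its 50-base windows with other genes, among them processed pseudogenes and Smu1. It overlaps Smu1 on the opposite strand over 7.05% of its exon bases. Reads there are uncertain if strand was not used in counting. The other DNAJA genes were Dnaja2, also cytosolic, at 145 and 139 CPM in aged libraries, against 136 and 131 CPM in young ones (0.089 ± 0.065, adjusted p = 0.476), the mitochondrial Dnaja3 (0.21 ± 0.087, adjusted p = 0.201, outside the naming rule), and Dnaja4, which had 8 to 22 counts a library.

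The fall was that of Dnajc15 (ENSMUSG00000022013.4; chromosome 14, 77820681 to 77875125), a protein of the mitochondrial inner membrane that restrains complex I of the respiratory chain. Dnajc15 stood at 39.9 and 38.8 CPM in the aged libraries, against 50.9 and 50.3 CPM in the young ones. The groups did not overlap, and the level was 0.778-fold that of young monocytes (0.683 to 0.886; log2 change -0.36 ± 0.084, edgeR adjusted p = 0.0341). Among the 6 calls, this one was lost most often: it did not pass without aged replicate 2 (adjusted p = 0.0802), young replicate 1 (0.224) or young replicate 2 (0.113), while the log2 change stayed between -0.38 and -0.35.

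Among 10 tested DNAJB genes none passed with edgeR, DESeq2 or limma-voom, and 3 had an unadjusted p under 0.05 (against 2536 of all 12035 genes). Dnajb1, the inducible HSP40 that works with the inducible HSP70s, stood at 98.0 and 105 CPM in aged monocytes and 84.8 and 91.1 CPM in young monocytes (0.21 ± 0.075, edgeR adjusted p = 0.14). Dnajb11, a J protein that feeds clients to Hspa5, stood at 142 and 145 CPM at 18 months and 126 and 132 CPM at 3 months (0.16 ± 0.064, adjusted p = 0.192). Both had aged libraries above young ones with a change that missed the threshold. Dnajb13, known from sperm flagella, stood at 3.43 and 4.88 CPM in aged libraries, against 6.25 and 7.12 CPM in young ones (-0.69 ± 0.23, adjusted p = 0.114). It passed in 3 of 15 alternative settings: with no low-count filter, with a replicate block and without aged replicate 2. It overlaps Ucp2 on the opposite strand over 11.2% of its exon bases, so its reads are uncertain if strand was not used in counting. Dnajb6, which keeps aggregating proteins soluble, stood at 94.8 and 94.4 CPM in aged monocytes and 101 and 96.6 CPM in young monocytes (-0.063 ± 0.069, adjusted p = 0.653).

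The 24 tested DNAJC genes, the most diverse J proteins, had a median log2 change of 0.079 and, besides Dnajc15, no call. Outside the naming rule, Dnajc7, which passes clients between HSP70 and HSP90, was nearest to the threshold, at 73.9 and 72.6 CPM at 18 months and 58.2 and 61.4 CPM at 3 months (0.29 ± 0.077, edgeR adjusted p = 0.0524). Its call turns on the choice of method, since limma-voom gave an adjusted p of 0.0422. Dnajc13, which acts with Hspa8 on endosomes and is also outside the rule, stood at 78.5 and 82.8 CPM in aged libraries, against 92.2 and 93.2 CPM in young ones (-0.20 ± 0.072, adjusted p = 0.139). Dnajc8, found with spliceosomes and the most abundant DNAJC gene per kilobase, gave 0.16 ± 0.069 (adjusted p = 0.217). Of the DNAJC genes not tested, Dnajc6, the auxilin that helps Hspa8 uncoat vesicles, had 7 and 1 counts in aged monocytes and 31 and 7 in young monocytes, and the other 3 were at 0 in all libraries.

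**Figure D3:**
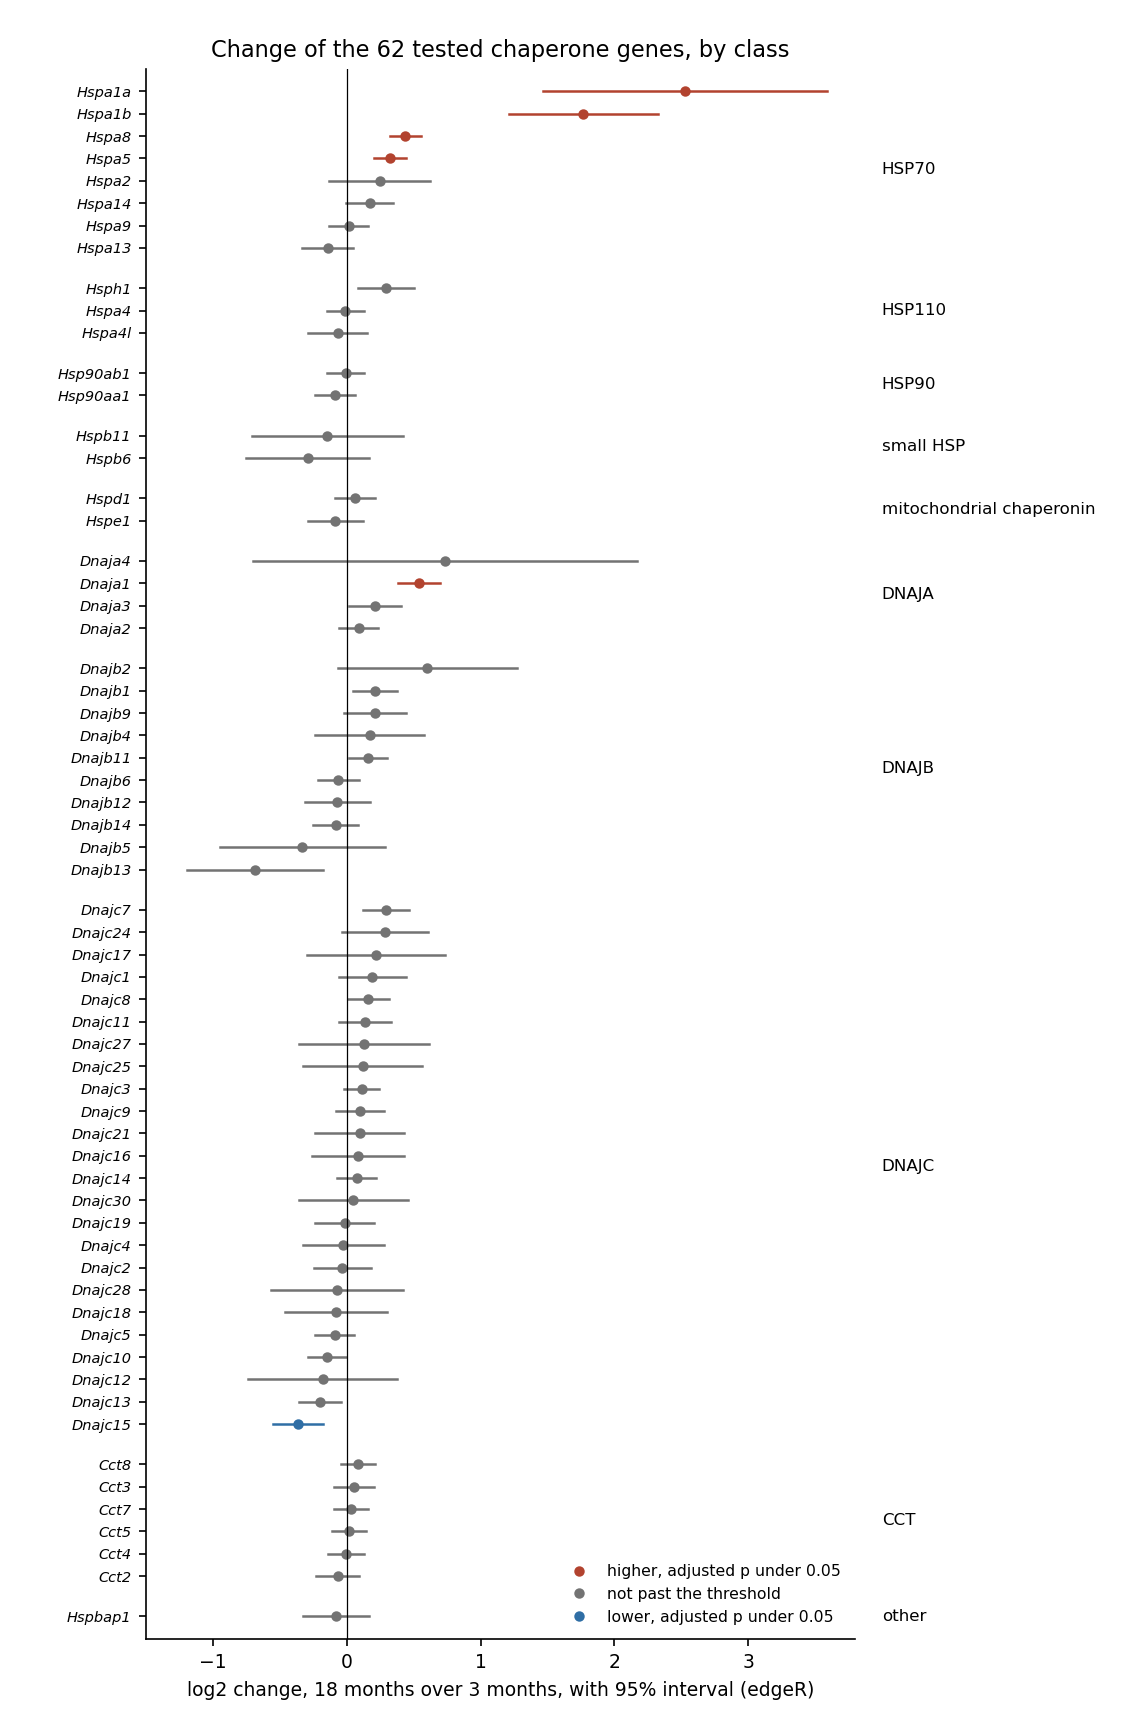
Log2 change (18 months over 3 months, x axis) with its 95% interval for the 62 tested chaperone genes, grouped by class and sorted within a class. Red marks the 5 genes called higher, blue Dnajc15, called lower, and grey the 56 that did not pass. The CCT intervals all include 0, and 4 of the 8 HSP70 genes are red, Hspa1a among them (of all tested genes 2.87% were called higher).

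Summed by class, the HSP70 genes reached 2173 and 2189 CPM in the aged libraries, against 1669 and 1756 CPM in the young ones, 1.27-fold. Hspa8 and Hspa5 together accounted for 1915 and 1937 CPM at 18 months and 1429 and 1507 CPM at 3 months. Without these 2 genes the class stood at 258 and 252 CPM in aged libraries, against 241 and 248 CPM in young ones, 1.04-fold. DNAJA genes summed to 312 and 314 CPM in aged monocytes and 260.2 and 261 CPM in young monocytes, 1.2-fold, of which Dnaja1 was the called member. For the other classes, the ratio of aged to young sums was between 0.851 (small HSP, at under 10 CPM) and 1.05 (DNAJB). All 80 genes made 6533 and 6573 CPM at 18 months and 5891 and 6091 CPM at 3 months (1.09-fold), and the 69 genes outside HSP70 made 4360 and 4385 CPM in aged libraries, against 4222 and 4335 CPM in young ones (1.02-fold). These sums are given without a test, since 2 libraries against 2 cannot give an exact two-sided p below 1 in 3.

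**Figure D4:**
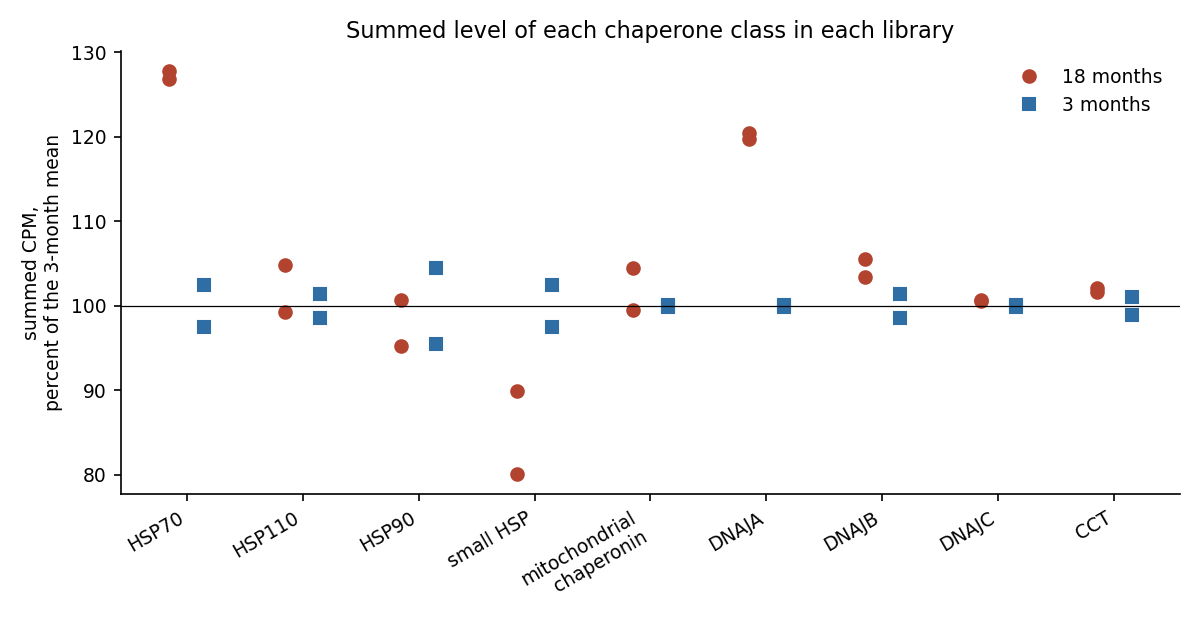
Summed CPM of each chaperone class in each library, as a percentage of the 3-month mean of that class (y axis, not from 0), with 18-month libraries as circles at left and 3-month libraries as squares at right of each class. The HSP70 and DNAJA circles lie near 127% and 120%, those of DNAJB, DNAJC and CCT lie slightly above 100%, those of HSP110, HSP90 and the mitochondrial chaperonin lie on both sides of it, and those of the small HSPs lie below it.

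By compartment, Hspa5 was called and the other 8 chaperone genes of the endoplasmic reticulum were not (11.1% higher, against 2.87% of all genes). The ages did not overlap in any of these 9 genes, against 51.6% of all genes, and this holds only for the list as assigned. Aged libraries were above young ones in 5 of the 9 and below in 4, against 25.9% and 25.7% of all genes. Of the J proteins of this compartment, and outside the naming rule, Dnajc3, whose promoter is shown above, stood at 183 and 182 CPM in aged monocytes and 166 and 171 CPM in young monocytes (0.11 ± 0.059, edgeR adjusted p = 0.319). Dnajb9, a J protein that turns Hspa5 back onto its stress sensor, gave 0.21 ± 0.10 (adjusted p = 0.273), and Dnajc10, a disulfide reductase, -0.15 ± 0.064 (adjusted p = 0.222). The 8 chaperone genes assigned to mitochondria included the fall of Dnajc15 (12.5%, against 2.89% of all genes) and no other call, with a median of 0.030. In lists of 9 and 8 genes, 1 call each is too few to set apart from the shares over all genes.

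Among partner genes outside the symbol rule 1 rose and 5 fell. Their lists held 3, 23, 19, 19, 23 and 17 tested genes, with some genes in more than 1 list. The lists were chosen with earlier results of these data known, so shares within them are a description. Over all genes tested 2.87% rose and 2.89% fell. Of 3 tested genes for heat shock factors and their binding protein, none passed with edgeR, DESeq2 or limma-voom. An unadjusted p under 0.05 was found for 2 of them, against 2536 of all 12035 genes. Hsf1, the main activator of the heat shock response, stood at 38.5 and 40.6 CPM at 18 months and 31.6 and 34.9 CPM at 3 months (0.25 ± 0.096, adjusted p = 0.161). Hsf2, outside the naming rule, stood at 3.99 and 4.51 CPM in aged libraries, against 6.14 and 5.57 CPM in young ones (-0.47 ± 0.21, adjusted p = 0.228). Of 19 HSP70 partners 1 rose and 1 fell (5.26% each, against 2.87% and 2.89% of all genes). Bag3, a nucleotide exchange factor that hands clients to autophagy and is itself stress-inducible, rose to 27.5 and 31.7 CPM in the aged libraries, against 19.8 and 23.0 CPM in the young ones (0.47 ± 0.12, adjusted p = 0.0478). Bag3 did not pass without aged replicate 2 (0.154) or without young replicate 1 (0.338). Hyou1, the exchange factor of Hspa5 in the endoplasmic reticulum, fell to 52.9 and 59.4 CPM in the aged libraries, against 72.7 and 69.7 CPM in the young ones (-0.34 ± 0.085, adjusted p = 0.0431). Hyou1 was lost without aged replicate 1 (0.111), young replicate 1 (0.283) or young replicate 2 (0.0915), and with upper-quartile (0.0509) or library-size scaling (0.0504).

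Of 23 tested HSP90 co-chaperones 3 fell (13%, against 2.89% of all genes) and none rose (against 2.87%). They were Fnip1 and Fnip2, which slow the ATPase of HSP90 and bind folliculin, and Fkbp5, which tunes the glucocorticoid receptor. Fnip1 stood at 43.8 and 43.9 CPM in aged monocytes and 58.8 and 62.1 CPM in young monocytes (-0.46 ± 0.082, edgeR adjusted p = 0.0101). Fkbp5 stood at 55.0 and 46.1 CPM at 18 months and 66.1 and 68.2 CPM at 3 months (-0.41 ± 0.096, adjusted p = 0.0358), and Fnip2 at 24.5 and 29.7 CPM in aged libraries, against 35.7 and 38.5 CPM in young ones (-0.45 ± 0.11, adjusted p = 0.0453). None of the 3 passed without young replicate 1 (0.0529 to 0.148) or without young replicate 2 (0.0566 to 0.162), and a library left out on the aged side ended the calls of Fkbp5 and Fnip2. Fnip2 was also lost with upper-quartile scaling (0.0515).

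Of 23 tested folding proteins of the endoplasmic reticulum, 2 fell (8.7%, against 2.89% of all genes) and none rose (against 2.87%). Besides Hyou1, which this list also holds, Uggt1, which senses misfolded glycoproteins, stood at 268 and 268 CPM in aged monocytes and 317 and 319 CPM in young monocytes (-0.25 ± 0.054, edgeR adjusted p = 0.0259), and it was lost without young replicate 1 (0.169), young replicate 2 (0.106) or aged replicate 2 (0.0535). Hsp90b1, outside the naming rule, stood at 490 and 481 CPM at 18 months and 534 and 549 CPM at 3 months (-0.16 ± 0.052, adjusted p = 0.113). The summed level of the 24 listed folding genes was 5270.2 and 5242 CPM in aged libraries, against 5472 and 5575 CPM in young ones. Of 19 tested prefoldin, TCP1 and CCT cofactor genes none passed with edgeR or DESeq2 and 1 passed with limma-voom. An unadjusted p under 0.05 was found for 2 of them, against 2536 of all 12035 genes. Pfdn5, a prefoldin subunit, gave -0.31 ± 0.082 (adjusted p = 0.0522, and 0.043 with limma-voom), and Tcp1, outside the naming rule, 0.047 ± 0.067 (adjusted p = 0.733). Of 17 mitochondrial chaperones and proteases none passed with any of the 3 tools and 2 had an unadjusted p under 0.05, with the smallest p at Clpx (0.31 ± 0.094, adjusted p = 0.0835).

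Immediate early genes respond quickly to many stimuli. Of 29 tested, 14 rose (48.3%, against 2.87% of all genes) and 1, Fosl2, fell, with a median log2 change of 0.66, and the list summed to 5139 and 5503 CPM in the aged libraries, against 3343 and 3341 CPM in the young ones. Of the B cell markers, 5 of 7 tested rose (71.4%), with sums of 1079 and 1074 CPM in aged monocytes and 718 and 726 CPM in young monocytes. Of 8 dendritic cell markers 2 rose (25%, against 2.87% of all genes). The 8 summed to 258 and 263 CPM at 18 months and 225 and 228 CPM at 3 months. Of 8 macrophage markers 2 also rose (25%). The 8 summed to 463 and 435 CPM in aged libraries, against 461 and 481 CPM in young ones. Of 8 neutrophil markers, Ltf and Ngp rose (25%) and S100a8 fell (12.5%). Ltf stood at 2299 and 2305 CPM in aged libraries and 1267 and 1339 CPM in young ones. Its log2 change was 0.82 ± 0.051 (edgeR adjusted p = 6.9e-06). Ngp stood at 5066 and 4851 CPM at 18 months and 3145 and 3076 CPM at 3 months (0.67 ± 0.049). Of 10 monocyte markers, Csf1r (0.33) and Spi1 (0.30) rose and Ly6c2 (-0.42) and Mpeg1 (-0.25) fell (20% each way). Over all genes 2.87% rose and 2.89% fell. No marker of erythroid or T and NK cells passed with edgeR, DESeq2 or limma-voom. An unadjusted p under 0.05 was found for 3 and 1 of them, against 2536 of all 12035 genes. These lists were chosen with earlier results of these data known, so their shares are a description. The part of these genes and cells in the chaperone changes was not tested.

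With each library left out in turn, Dnaja1, Hspa1b and Hspa8 passed every time. The log2 change stayed between 0.50 and 0.58 for Dnaja1, between 1.73 and 1.82 for Hspa1b, and between 0.40 and 0.47 for Hspa8. Without young replicate 1, the deepest library, these 3 were the chaperone genes called, and 197 genes of all passed in place of 694. Hspa1a ranged from 2.19 to 2.82 and Hspa5 from 0.29 to 0.37, and each lost its call without young replicate 1. No called chaperone gene changed direction with any library left out.

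**Figure D5:**
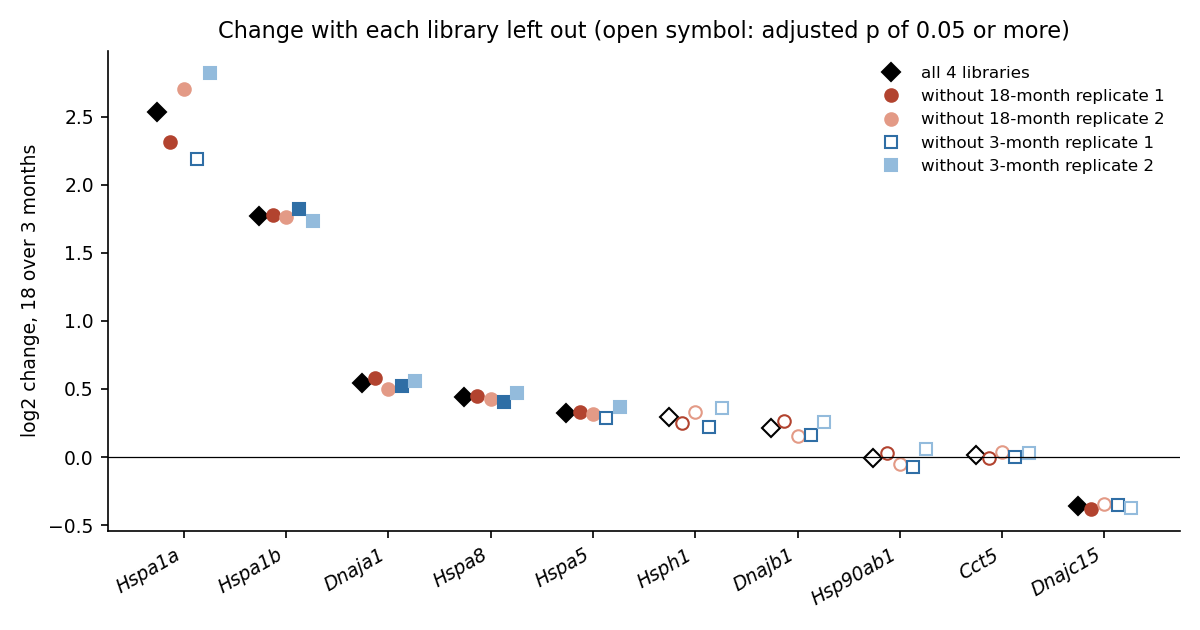
Log2 change (18 over 3 months, y axis) of 10 chaperone genes with all 4 libraries (diamond) and with each library left out (circles for an 18-month library, squares for a 3-month library left out). Filled symbols passed at an adjusted p under 0.05 and open symbols did not. Dnaja1, Hspa1b and Hspa8 are filled throughout, and Hsp90ab1 and Cct5 lie on both sides of 0.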

How the data were processed

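The authors deposited a table of whole-number counts for each library, with a row for every symbol and no normalization. Per the labels' protocols, messenger RNA was captured on oligo-dT beads and fragmented, and dUTP marked the strand. Tools in the submitters' processing notes are STAR 2.5.3, HTSeq, cutadapt and DESeq2, with the build mm10. For the annotation and the strand setting of the counting, the entry is: not given in the sources used here. Overlapping antisense genes may therefore share reads. All 80 symbols matched GENCODE M21 (GRCm38), as did 30477 of the 31017.

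Genes were kept by filterByExpr (minimum count 10, minimum total 15), scaled by TMM and tested two-sided by edgeR's quasi-likelihood test with Benjamini-Hochberg adjustment over all tested genes. The procedure was tested on simulated counts, drawn with dispersions estimated from these same libraries. The pass condition covered only the largest simulated fold and unchanged genes. Smaller folds, such as most of those called here, were not part of that condition. Standard errors were derived from the F statistic of each gene. The per-kilobase length is the union of exons of GENCODE basic protein-coding transcripts. Members and lists were chosen with earlier results of these data known. Named were called genes, a fixed set of central chaperones and, per class, the gene of smallest p and of highest level per kilobase, and of partner lists the called genes or the one of smallest p. As alternatives, scaling (upper-quartile, RLE, library size), low-count filters (3), tools (limma-voom, DESeq2, robust edgeR, glmTreat at 1.2-fold) and libraries (a replicate block, or leaving out each) were varied. Summing Hspa1a with Hspa1b was added after seeing the data. Versions were DESeq2 1.42.0, limma 3.58.1, edgeR 4.0.16 and R 4.3.3.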

Additional observations from a re-analysis of the deposited data

How the results depend on the processing

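The 6 called chaperone genes kept their direction in all 88 refits, and 80 of these also kept the call. Of 403 refits of 27 other named genes, 13 passed, most often Dnajc7, and 9 reversed a change near 0. With no low-count filter 1399 genes were called, 2 chaperone genes were lower and 10 partner genes were called. Against a 1.2-fold limit (glmTreat) 161 genes were called, 3 chaperone genes (3 higher, 0 lower) and 0 partner genes, with Hspa8 (adjusted p = 0.0521), Hspa5 and Dnajc15 (0.632 each) lost. The replicate numbers were not shown to pair libraries, as deviations of same-numbered libraries correlated at 0.0937 over 12035 genes. With the replicate number as a block 1817 genes were called, 11 chaperone genes (8 higher, 3 lower) and 17 partner genes. With a library left out, 197 to 1040.0 genes, 3 to 6 chaperone genes (3 to 5 higher, 0 to 1 lower) and 0 to 7 partner genes (6 with all libraries) passed. A lone library was then assumed to vary like the other age. A mean of at least 5 CPM leaves Hspa1a and Hspa1b out of the test. Log2 ratios of class sums moved beyond the spread for DNAJA with upper-quartile scaling (0.28, against 0.26) and DNAJC with upper-quartile scaling (0.022) or library size alone (0.013, against 0.0091). With a library left out these ratios were 0.26 to 0.27 for DNAJA, 0.0065 to 0.012 for DNAJC and -0.0064 to 0.062 for the mitochondrial chaperonin. Sign changes came with upper-quartile scaling for Hspa4 (0.0018) and Hsp90ab1 (0.0037). With a library left out they came for Hspa9 (-0.012 to 0.039), Hspa4 (-0.056 to 0.030), Hsp90ab1 (-0.073 to 0.056), Cct5 (-0.0074 to 0.038) and Tcp1 (-0.013 to 0.10). The cause of these moves was not tested. Depth limits Hspa1a, the small HSPs and the testis forms, which rest on few counts.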
